A study of Mus musculus with 24 samples.

Results

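Primary mouse epidermal progenitors that carried *shScr*, a scrambled control hairpin, or *shId1*, a hairpin against *Id1*, were sequenced before (0 h) and 24 h after they were moved to high calcium. These 12 of the 24 libraries of the series, 3 for each hairpin and time, show how silencing of *Id1* altered the calcium response. All groups were cultured epidermal keratinocytes labelled as wild type (WT). They came from newborn pups, were grown over 3T3-J2 feeder cells in low-calcium medium, and were infected with lentivirus carrying *shScr* or *shId1*. Silencing rests on 1 hairpin against *Id1*, and the design has no 24 h group in low calcium: the effects of calcium and of a further day of culture cannot be told apart. The interaction is the 24 h minus 0 h change in *shId1* cells minus the same change in *shScr* cells, on log2(value + 0.5). The values are read counts scaled to library size (CPM). A positive interaction means that a gene rose more, or fell less, in *shId1* cells. Of 10818 genes in the table, 10790 were tested, and 384 (3.56%) were called, meaning that the p-value adjusted by Benjamini and Hochberg's method lay under 0.05 and the log2 value exceeded 1 in size. The interaction was higher in 193 of them (1.79% of the genes tested) and lower in 191 (1.77%).

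ID1 belongs to the Id proteins, which bind basic helix-loop-helix (bHLH) transcription factors and, lacking a DNA-binding region of their own, keep them from DNA. Basal epidermal progenitors sit on a basement membrane through integrins and laminins, and divide. Raised calcium starts their differentiation in culture: cells leave the cycle, lower their adhesion to the matrix, assemble desmosomes and later make cornified envelope proteins and barrier lipids.

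The libraries held 22606273 to 31009753 reads in the table. All 8 keratinocyte markers listed were present, with a summed level of 24700 to 49300 CPM. Only 5 of 22 fibroblast markers were listed, with a summed level of 269 to 373 CPM in *shScr* and 257 to 344 CPM in *shId1* cells at 0 h, and 257 to 307 and 197 to 288 CPM at 24 h. The share of mitochondrial transcripts was 2.27 to 2.45% in *shScr* and 2.86 to 3.34% in *shId1* cells at 0 h, and overlapped at 24 h. Its part in the results was not tested. Replicates numbered 1 stood apart, with correlations to the others of their group of 0.975 to 0.99, against 0.993 to 0.996 between replicates 2 and 3. The count of calls depended on single libraries. It was 180 without *shId1* 0 h replicate 2, 196 without *shScr* 0 h replicate 2, 231 without *shScr* 24 h replicate 2, 248 without *shScr* 0 h replicate 1 and 255 without *shId1* 24 h replicate 3. The labels call the replicates biological without saying whether they were separate cultures or animals, and p-values measure the spread between these libraries. All 384 genes kept their sign when any 1 of the 12 libraries was left out, and 151 kept their call each time. With the replicate number within each time as a block, 556 genes were called, 290 of them higher, and 383 of the 384 were among them.

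*Id1* itself (GRCm38 chr2:152736251-152737410) was lower in *shId1* cells before calcium. Levels are given for replicates 1, 2 and 3 in turn throughout. Before calcium *shScr* cells held 60.7, 103 and 111 CPM and *shId1* cells 25.7, 19.7 and 39.0 CPM. After calcium *shScr* cells held 27.9, 44.8 and 69.6 CPM and *shId1* cells 17.6, 40.1 and 29.7 CPM. The groups were apart at 0 h and overlapped at 24 h. *shId1* minus *shScr* was -1.69 (log2, adjusted p = 0.018, limma) at 0 h and -0.67 (adjusted p = 0.26) at 24 h. *Id1* fell in *shScr* cells (-0.99, adjusted p = 0.038) and its response in *shId1* cells was 0.03 (adjusted p = 0.95), but the interaction, 1.02 ± 0.53 (SE, adjusted p = 0.29), was not called. With array weights, which let libraries differ in precision, it was called (1.07, adjusted p = 0.015). *Id2*, a related Id protein, fell by 1.72 in *shScr* and by 0.91 in *shId1* cells, an interaction of 0.82 ± 0.18 (adjusted p = 0.022) under the fold limit. *Id3* had an interaction of 0.39 ± 0.63 (adjusted p = 0.79). The bHLH partners *Tcf3*, *Tcf4* and *Tcf12* had interactions of -0.55, 0.01 and 0.21, none with an adjusted p under 0.05, and the sign for *Tcf4* turned with single libraries.

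Across all genes tested the responses to calcium were alike in direction, with a Pearson r of 0.838 and a Spearman rho of 0.825 over 10790 genes, which share their libraries and are not independent. Called responses numbered 2032 genes in *shScr* cells (18.8%) and 1681 in *shId1* cells (15.6%). Of the 384 genes with a called interaction, 229 had a called response in *shScr* cells, 162 in *shId1* cells, and 73 in neither. They were classed by which responses had an adjusted p under 0.05, a level that 60.7% of all genes reached in *shScr* and 57.5% in *shId1* cells. In 106 genes the response was blunted, passing in both with the same sign but smaller in *shId1* cells: 87 rises and 19 falls. In 123 it was lost, passing in *shScr* cells alone, with 57 rises and 66 falls. In 18 it was enhanced, all of them rises, and in 72 it was gained, passing in *shId1* cells alone, with 51 rises and 21 falls. The remaining 65 were reversed, 26 of them rising and 39 falling in *shScr* cells. Most called genes were well expressed: 296 had a mean of 10 CPM or more in their highest group and 3 a mean under 2 CPM.

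**Figure D1:**
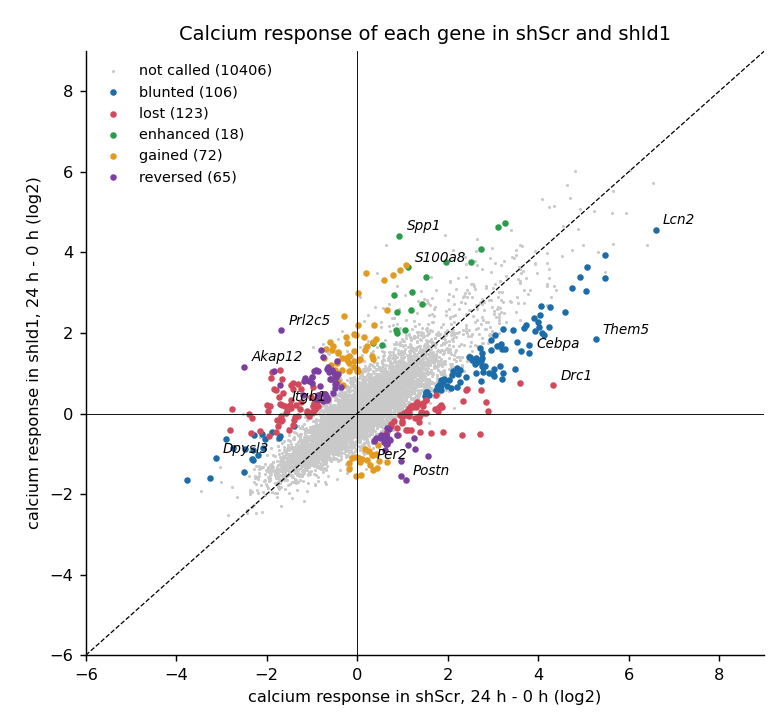
Change from 0 h to 24 h (log2) of each of the 10790 genes tested in *shScr* cells (horizontal axis) and *shId1* cells (vertical axis), with called genes coloured by response class and the dashed line marking equal responses. Called genes lie away from the dashed line on both sides, and the 65 reversed genes lie in the upper left and lower right quadrants.

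The interaction can be read at its start and at its end, since it equals the *shId1* minus *shScr* difference at 24 h minus that at 0 h. At an adjusted p under 0.05, *shId1* and *shScr* cells differed in 7.47% of all genes at 0 h and in 14.6% at 24 h. Of the 87 blunted rises, 50 differed at 0 h alone, 21 at 24 h alone, 10 at both and 6 at neither. Blunted rises had a median of 2.78 (log2) in *shScr* and 1.27 in *shId1* cells, with a median difference of 0.997 at 0 h and -0.442 at 24 h, and 83 of the 87 were already higher in *shId1* cells before calcium. Of the 19 blunted falls, 4 differed at 0 h alone, 6 at 24 h alone, 6 at both and 3 at neither, and of the 57 lost rises 13, 26, 11 and 7 did. Of the 66 lost falls, 41 differed at 24 h alone, with medians of -0.683 at 0 h and 0.924 at 24 h. Among the 51 gained rises 39 differed at 24 h alone, and among the 65 reversed genes 53 did. These counts describe genes picked for the interaction, and a difference at 0 h enters it, so no test was run on them.

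**Figure D2:**
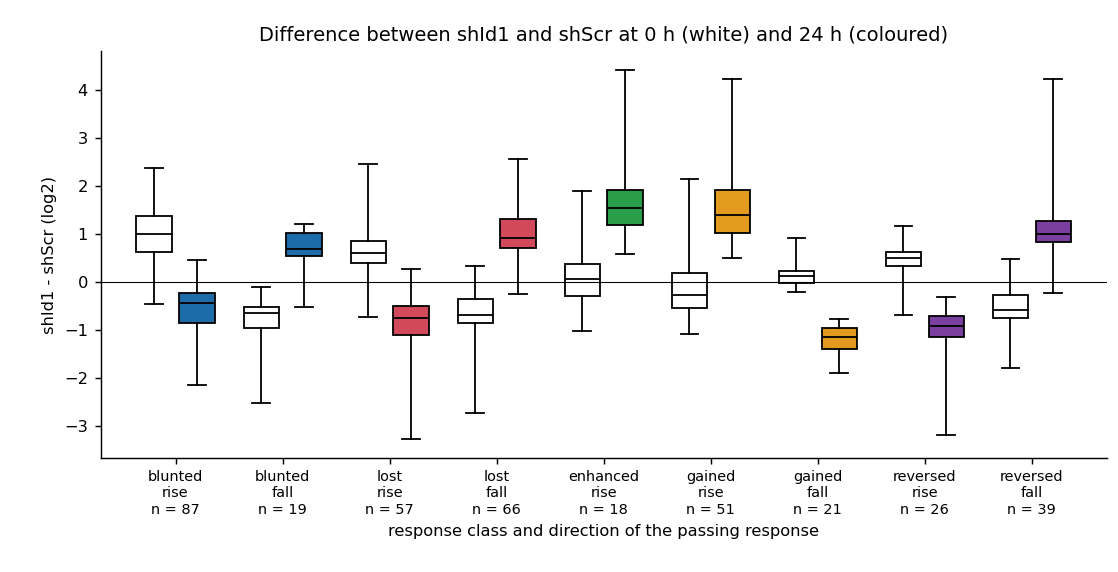
Difference between *shId1* and *shScr* cells (log2) at 0 h (white boxes) and 24 h (coloured boxes) for the called genes of each class and direction, with boxes from the lower to the upper quartile, the median as a line and whiskers to the lowest and highest gene. Blunted rises start higher in *shId1* cells, with a median of 0.997 at 0 h, while gained rises have a median of -0.273 at 0 h and 1.39 at 24 h.

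*Cebpa* (chr7:35119293-35121928), which encodes a basic leucine zipper factor of epidermal differentiation, had a blunted rise. Its level at 0 h was 0.897, 1.37 and 1.32 CPM in *shScr* and 4.71, 4.58 and 2.96 CPM in *shId1* cells. At 24 h it reached 22.8, 24.0 and 21.6 CPM in *shScr* and 11.3, 13.9 and 11.8 CPM in *shId1* cells. *shId1* cells were thus higher before and lower after calcium, without overlap at either time. The rise was 3.79 in *shScr* and 1.5 in *shId1* cells, and the interaction was -2.29 ± 0.25 (adjusted p = 0.0017, limma). *shId1* minus *shScr* was 1.42 at 0 h (adjusted p = 0.00069) and -0.86 at 24 h (adjusted p = 0.0075). *Ehf*, an ETS family factor of epithelia, was at 64.5, 52.9 and 67.2 CPM in *shScr* and 199, 209 and 141 CPM in *shId1* cells at 0 h. At 24 h the groups overlapped, at 471, 428 and 358 CPM in *shScr* and 509, 441 and 458 CPM in *shId1* cells, so its interaction of -1.38 ± 0.22 (adjusted p = 0.0055) lay in the starting level. Of 34 epidermal fate transcription factors tested these 2 were called, both lower, and the median interaction was -0.121 against 0.0032 over all genes tested. Over all genes tested 3.56% were called, the share to set beside this count and the later counts of called list members. *Mxd4*, a MAX partner that represses MYC targets, was the only called member of 26 Id and bHLH genes. It rose from 13.6, 18 and 24.6 to 119, 118 and 110 CPM in *shScr* cells, and from 23.4, 36.7 and 28.0 to 57.3, 59.4 and 60.1 CPM in *shId1* cells, an interaction of -1.62 ± 0.27 (adjusted p = 0.0065).

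The RefSeq sequence of the 250 bases before the start of *Cebpa* and *Itgb1*, with a blunted rise and a lost fall, and of *S100a8* and *S100a9*, which encode partner proteins and were higher in *shId1* cells at both times, is shown because the results below turn on these genes (GRCm38.p6, 5′ to 3′ on the gene's own strand). Both strands were searched for CANNTG, the E-box read by bHLH factors, TGANTCA for AP-1, TTGCNNAA for C/EBP and AACNNGTT for Grainyhead factors. Matches are in capitals.
Cebpa, chr7:35119043-35119292, plus strand: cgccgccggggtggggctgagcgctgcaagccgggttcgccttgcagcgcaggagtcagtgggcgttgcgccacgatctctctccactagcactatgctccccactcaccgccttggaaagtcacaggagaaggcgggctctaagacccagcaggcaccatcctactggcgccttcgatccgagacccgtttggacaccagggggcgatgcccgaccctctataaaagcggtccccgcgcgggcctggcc
Itgb1, chr8:128685404-128685653, plus strand: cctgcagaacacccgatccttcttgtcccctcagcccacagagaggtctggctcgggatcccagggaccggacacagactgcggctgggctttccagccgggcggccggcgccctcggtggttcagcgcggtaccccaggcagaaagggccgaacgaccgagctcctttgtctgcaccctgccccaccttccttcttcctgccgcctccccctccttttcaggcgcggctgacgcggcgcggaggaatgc
S100a8, chr3:90668821-90669070, plus strand: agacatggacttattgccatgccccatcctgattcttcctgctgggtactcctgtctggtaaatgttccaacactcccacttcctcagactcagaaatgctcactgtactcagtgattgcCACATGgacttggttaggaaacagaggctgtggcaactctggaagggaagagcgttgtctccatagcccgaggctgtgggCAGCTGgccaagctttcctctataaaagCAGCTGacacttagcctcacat
S100a9, chr3:90695722-90695971, minus strand: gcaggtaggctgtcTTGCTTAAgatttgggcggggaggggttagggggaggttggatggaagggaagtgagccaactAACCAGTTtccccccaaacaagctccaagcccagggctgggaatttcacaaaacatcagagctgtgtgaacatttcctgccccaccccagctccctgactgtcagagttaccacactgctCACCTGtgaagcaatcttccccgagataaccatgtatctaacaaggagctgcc
For *S100a8* the RefSeq start lies inside the GENCODE gene given below, so the end of its window, with both CAGCTG matches, falls within that gene. *S100a8* held 3 E-box matches, and *S100a9* 1 match each to the E-box, C/EBP and Grainyhead letters, while the windows of *Cebpa* and *Itgb1* held none. In windows of 300 bases the E-box letters occurred in 75% of the 27025 genes in the RefSeq table, AP-1 in 8.97%, C/EBP in 12.2% and Grainyhead in 4.77%. Only 143 of the 193 genes with a higher and 133 of the 191 with a lower interaction had a window in that table. This is under 80%, so a comparison of their shares is void.

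Some desmosomal and barrier lipid genes rose less in *shId1* cells. Of 16 suprabasal keratin and desmosome genes tested, 3 were called, all lower, and the median interaction was -0.284. *Dsg1a*, a desmosomal cadherin of upper epidermal layers, was at 4.77, 6.53 and 10.2 CPM in *shScr* and 13.6, 32.1 and 19.8 CPM in *shId1* cells at 0 h. After calcium the levels were 99, 80.7 and 69.8 CPM in *shScr* and 42.6, 42.3 and 49.7 CPM in *shId1* cells, again without overlap and now in the other order, though *shId1* minus *shScr* at 24 h did not pass (-0.87, adjusted p = 0.064). The interaction was -2.39 ± 0.41 (adjusted p = 0.0075), and the neighbouring copy *Dsg1b* had -1.36 ± 0.24 (adjusted p = 0.0080). Reads of such near-identical copies could be split between them, so each copy's value is uncertain. *Krt78*, a keratin of differentiating cells, had -1.38, a call lost in 9 of the 12 fits without 1 library. *Krt10*, the keratin that marks early differentiation, rose from 7.46, 6.29 and 7.14 to 70.7, 109 and 91.8 CPM in *shScr* and from 21.1, 12.5 and 8.69 to 167, 104 and 134 CPM in *shId1* cells, an interaction of -0.31 ± 0.38 (adjusted p = 0.71) whose sign turned without *shId1* 0 h replicate 1, to 0.02. The basal keratins *Krt5* and *Krt14* were not called either, with -0.62 (adjusted p = 0.13) and 0.37 (adjusted p = 0.67).

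Of 21 barrier lipid genes 5 were called, all lower, with a list median of -0.236. *Dgat2*, an enzyme of the last step of triglyceride synthesis, rose from 11.9, 9.93 and 10.6 to 92.9, 105 and 105 CPM in *shScr* cells and from 33.9, 32.4 and 24.9 to 89.2, 114 and 98.6 CPM in *shId1* cells. Its groups were apart at 0 h and overlapped at 24 h, and the interaction was -1.46 ± 0.18 (adjusted p = 0.0024). *Pnpla1*, needed for the acylceramides of the skin barrier, showed the same order: 1.69, 1.99 and 2.06 against 7.92, 6.38 and 4.29 CPM at 0 h, and 41.1, 38.3 and 38.3 against 39.0, 33.3 and 32.8 CPM at 24 h (interaction -1.60 ± 0.25, adjusted p = 0.0047). *Sdr9c7*, *Cyp4f39* and *Acer1*, which also act on barrier lipids, were called in the fit of all libraries, with -1.64 and -1.46 for *Sdr9c7* and *Cyp4f39*, but lost their calls in 10, 9 and 11 of the 12 fits without 1 library. Of 39 cornified envelope genes tested 1 was called higher and 2 lower, none of them by edgeR on the recovered reads, and the median was 0.17. Members of the *Sprr2* and *Lce3* families resemble each other, so their reads could be split. *Sprr2b*, a small proline-rich envelope precursor, had -1.53 (lost in 5 of the 12 fits), *Spink5*, a protease inhibitor, had -1.58 (lost in 11), and *Lce3c*, a late envelope gene, had 2.97 (lost in 9). *Ivl*, which encodes involucrin, had 0.17 (adjusted p = 0.78), a sign that turned without *shScr* 24 h replicate 1, to -0.0979.

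*Drc1* (chr5:30281388-30366695), which encodes a dynein regulatory subunit of cilia, had the most negative interaction of the 10790 genes. It rose from 0.143, 0.274 and 0.499 to 15.2, 19.7 and 12.4 CPM in *shScr* cells, while in *shId1* cells it was at 1.02, 3.41 and 1.36 CPM at 0 h and 2.71, 3.22 and 3.52 CPM at 24 h. The interaction was -3.63 ± 0.44 (adjusted p = 0.0024), and the groups did not overlap at either time. *Them5*, a mitochondrial thioesterase, rose in both but less in *shId1* cells, from 0.287, 0.352 and 0.911 to 45.3, 40.7 and 28.2 CPM against 4.83, 6.16 and 2.35 to 16.3, 14.0 and 19.0 CPM (interaction -3.42 ± 0.44, adjusted p = 0.0024). *Grip2*, a scaffold for glutamate receptors, differed only after calcium. At 0 h it was at 0.251, 1.45 and 1.18 CPM in *shScr* and 0.18, 1.11 and 1.53 CPM in *shId1* cells, and at 24 h at 11.8, 8.04 and 6.06 against 0.52, 0.278 and 0.472 CPM (interaction -3.22 ± 0.61, adjusted p = 0.0099). *Chdh*, choline dehydrogenase, showed the converse, with 1.00, 1.56 and 3.53 CPM in *shScr* and 7.23, 20.4 and 12.5 CPM in *shId1* cells at 0 h and overlapping levels at 24 h of 30.1, 32.6 and 21.9 against 18.7, 20.4 and 24.8 CPM. Its interaction was -2.85 ± 0.52 (adjusted p = 0.0094).

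Receptors and carriers were among the other rises that were smaller or lost. *Gas1*, a membrane protein that binds Hedgehog ligands, had an interaction of -2.84 ± 0.46 (adjusted p = 0.0063). It was at 10.3, 11.4 and 7.04 CPM in *shScr* and 5.27, 1.83 and 3.56 CPM in *shId1* cells at 24 h, from 1.00, 1.41 and 2.23 against 4.74, 6.45 and 3.95 CPM. *Fgfr3*, a receptor for fibroblast growth factors, rose from 7.24, 6.57 and 10.1 to 88.7, 75.5 and 66.6 CPM in *shScr* cells and from 11.2, 22 and 16.6 to 30.4, 28.5 and 29 CPM in *shId1* cells (interaction -2.35 ± 0.30, adjusted p = 0.0024). Neither gene's groups overlapped at either time. *Tcn2*, a carrier of vitamin B12, had -2.22 ± 0.28 (adjusted p = 0.0024), and *Slc6a2*, the noradrenaline transporter, -2.57 ± 0.48 (adjusted p = 0.0096). EGF receptor and ligand genes, 12 of them tested, included 1 called higher and 1 called lower, with a median interaction of 0.349. The lower call was *Erbb2*, a co-receptor of this family, which rose by 1.10 in *shScr* cells and by 0.07 (adjusted p = 0.71) in *shId1* cells. Its interaction of -1.03 fell under the fold limit without *shScr* 0 h replicate 1 (-0.929), *shId1* 0 h replicate 2 (-0.968) or 3 (-0.99), or *shScr* 24 h replicate 1 (-0.884). Among the 33 G1 regulators and p53 targets, *Cdkn2a*, which encodes inhibitors of the cell cycle, was at 2.91, 2.97 and 2.70 CPM in *shScr* and 6.21, 7.02 and 10 CPM in *shId1* cells at 0 h, and overlapped at 24 h (interaction -1.2, a call lost in 6 of the 12 fits).

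**Figure D3:**
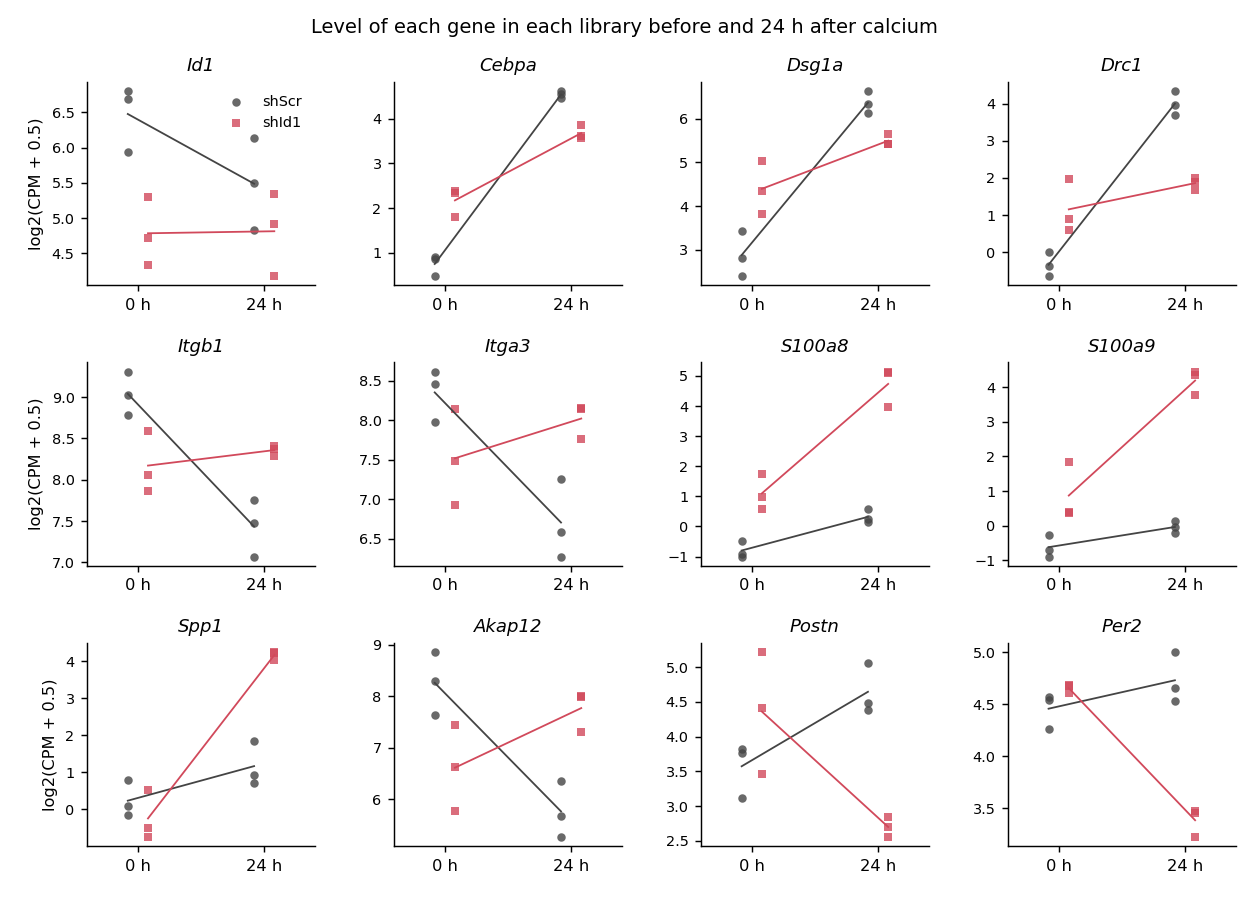
Level of 12 genes in each library, as log2(CPM + 0.5), at 0 h and 24 h in *shScr* (grey circles) and *shId1* cells (red squares), with lines joining the group means and vertical axes that do not start at 0. The lines cross for *Cebpa*, *Dsg1a*, *Drc1*, *Itgb1*, *Itga3*, *Spp1*, *Akap12*, *Postn* and *Per2*. For *S100a8* and *S100a9* the *shId1* libraries lie above the *shScr* libraries at both times.

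Integrins and laminins, through which basal cells hold to the basement membrane, included lost falls, in which the response passed in *shScr* cells alone. Of 25 basal keratin, integrin and hemidesmosome genes tested 5 were called, all higher, and the median was 0.597. *Itgb1* (chr8:128685654-128733200), the shared beta subunit of many integrins, was at 633, 522 and 440 CPM in *shScr* and 386, 233 and 265 CPM in *shId1* cells at 0 h. After calcium the order was the other way round, with 134, 177 and 216 CPM in *shScr* and 313, 339 and 332 CPM in *shId1* cells, and the groups overlapped at neither time. The response was -1.61 in *shScr* cells (adjusted p = 2.8e-05) and 0.19 in *shId1* cells (adjusted p = 0.45), and the interaction was 1.79 ± 0.29 (adjusted p = 0.0059). *Itga3*, the alpha subunit that binds laminin-332, fell from 392, 353 and 252 to 77.0, 95.9 and 152 CPM in *shScr* cells, while *shId1* cells were at 283, 121 and 179 CPM at 0 h and 217, 285 and 283 CPM at 24 h (interaction 2.15 ± 0.43, adjusted p = 0.013). The groups overlapped at 0 h and were apart at 24 h. *Lamb3*, a laminin chain, had 1.61 and *Itgb6*, an integrin beta subunit, 1.63, and both lost their calls in 8 of the 12 fits without 1 library.

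Targets of YAP and SRF, which respond to tension and actin, included 4 called genes of 33 tested, all higher, with a median of 0.414. *Ccn2*, a secreted matricellular protein and YAP target, fell from 243, 129 and 95.9 to 26.9, 46.9 and 73.5 CPM in *shScr* cells, and was at 80.9, 42.1 and 52.9 CPM at 0 h and 138, 94.8 and 83.7 CPM at 24 h in *shId1* cells. Its interaction was 2.52 ± 0.55 (adjusted p = 0.020), with an adjusted p of 0.062 (interaction 2.32) without *shId1* 0 h replicate 2 and 0.05 (interaction 2.48) without *shId1* 0 h replicate 3, and neither passed. With the block within each time, which pairs the hairpins, the call was lost too (2.52, adjusted p = 0.051). *Mical2*, an actin-oxidizing enzyme, had 2.46 ± 0.52 (adjusted p = 0.017). Without *shScr* 0 h replicate 2 it was 2.44 (adjusted p = 0.051). In this gene *shId1* cells were low from the start, at 8.16, 1.86 and 4.53 against 39.3, 31.1 and 22.8 CPM, and the groups overlapped at 24 h. *Flna*, an actin crosslinker, was at 832, 732 and 926 CPM in *shScr* and 1360, 1160 and 1330 CPM in *shId1* cells at 24 h (interaction 1.2, lost in 5 of the 12 fits). *Ccn1*, a relative of *Ccn2*, had 1.38, lost in 8 of the 12 fits and with edgeR (1.49, adjusted p = 0.05).

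The ETS factors *Etv4* and *Etv5*, which lie downstream of receptor tyrosine kinases, fell in *shScr* cells. *Etv4* went from 49.0, 43.1 and 33.4 to 5.99, 9.66 and 20.5 CPM in *shScr* cells and from 37.9, 13.2 and 23.0 to 37.8, 45.3 and 43.2 CPM in *shId1* cells, where its response did not pass (0.88, adjusted p = 0.077). The interaction was 2.78 ± 0.56 (adjusted p = 0.014). *Etv5* was reversed, with 9.47, 10.6 and 9.02 CPM at 0 h and 1.39, 2.22 and 4.06 CPM at 24 h in *shScr* cells, and 7.83, 2.78 and 4.84 CPM at 0 h and 14.2, 7.75 and 10.1 CPM at 24 h in *shId1* cells. Its rise in *shId1* cells was 1.05 (adjusted p = 0.024) with overlap between the times, and the interaction was 2.88 ± 0.50 (adjusted p = 0.0080). *Ctnnal1*, an alpha-catenin relative, had a lost fall with 2.89 ± 0.48 (adjusted p = 0.0069).

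Blunted falls were 19 genes. *Iqgap2*, a scaffold of the cytoskeleton, was at 99.8, 103 and 96.5 CPM in *shScr* and 51.6, 41.3 and 48.1 CPM in *shId1* cells at 0 h, and at 10.1, 8.81 and 11.3 against 17.2, 13.3 and 15.4 CPM at 24 h (interaction 1.66 ± 0.17, adjusted p = 0.0016). *Rab32*, a small GTPase of vesicle traffic, showed the same order, with 12.7, 14.4 and 13.4 against 7.95, 3.89 and 5.99 CPM and then 1.45, 1.37 and 1.31 against 3.42, 3.42 and 3.63 CPM (interaction 2.26 ± 0.28, adjusted p = 0.0024). *Dpysl3*, a cytoskeletal regulator, was different in that *shId1* cells were lower at both times, at 5.70, 3.41 and 5.65 against 29.3, 32.4 and 28.2 CPM at 0 h and 2.52, 1.91 and 1.52 against 3.31, 3.08 and 2.61 CPM at 24 h (interaction 2.01 ± 0.28, adjusted p = 0.0032). Its *shId1* minus *shScr* difference at 24 h did not pass, however (-0.51, adjusted p = 0.11, limma). *Ccnd1*, cyclin D1, fell from 331, 329 and 256 to 52.9, 53.7 and 52.3 CPM in *shScr* and from 243, 132 and 211 to 72.3, 66.4 and 68.7 CPM in *shId1* cells. Its interaction of 1.06 ± 0.26 (adjusted p = 0.028) was near the fold limit and was lost in 5 of the 12 fits. Of 52 DNA replication and S phase genes and 48 G2 and mitosis genes, 0 were called by limma or edgeR. An unadjusted limma p under 0.05 was reached by 12 and 15 of them, against 2439 of all 10790 genes tested. Median interactions of these lists were 0.234 and 0.223, with 44 positive in each list, against 5435 of all 10790 genes tested. Genes of a list share their libraries and are not independent, so these counts are description only. Their median responses were -1.54 and -1.37 in *shScr* and -1.30 and -1.09 in *shId1* cells.

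Of 28 alarmin and inflammation genes tested, 4 were called higher and 1 lower, with a median of 1.09, but edgeR on the recovered reads called 1 of the list. *S100a8* (chr3:90668978-90670035) and *S100a9* (chr3:90692632-90695721) encode the subunits of calprotectin, a secreted calcium-binding alarmin. *S100a8* was at 0.215, 0 and 0.0294 CPM in *shScr* and 2.88, 1.45 and 0.988 CPM in *shId1* cells at 0 h, and at 0.693, 0.599 and 0.979 against 15.3, 33.4 and 34.8 CPM at 24 h. Every *shId1* library before calcium thus held more than any *shScr* library after it. The closest values, 0.988 and 0.979 CPM, differed by less than 1 read (0.034 and 0.047 CPM in these libraries). *shId1* minus *shScr* was 1.90 at 0 h (adjusted p = 0.0058) and 4.42 at 24 h (adjusted p = 2.9e-05). The interaction was 2.52 ± 0.49 (adjusted p = 0.011), and for *S100a9* 2.73 ± 0.50 (adjusted p = 0.0092). Both interactions depended on how levels under 1 CPM were treated. With a pseudocount of 0.1 they were 1.54 (adjusted p = 0.21) and 2.41 (adjusted p = 0.064), and with edgeR 0.803 (adjusted p = 0.79) and 1.99 (adjusted p = 0.29), so a larger fold rise in *shId1* cells was not established for either gene. *S100a9* was at 13.3, 21.3 and 19.7 CPM in *shId1* and 0.361, 0.47 and 0.606 CPM in *shScr* cells at 24 h. *Cxcl5*, a neutrophil-attracting chemokine, and *Il1a*, a cytokine, were called too but lost their calls in 8 and 7 of the 12 fits. *Il1a* was at 0.392, 1.45 and 2.56 CPM in *shScr* and 5.94, 11.2 and 9.36 CPM in *shId1* cells at 24 h (interaction 2.63, and 2.99 with an adjusted p of 0.10 by edgeR). *Lcn2*, an iron-binding defence protein, rose in both and less in *shId1* cells, to 101, 146 and 143 against 33.9, 91.3 and 79.6 CPM (interaction -2.03, lost in 7 of the 12 fits, and -2.22 with an adjusted p of 0.051 by edgeR). The only immune marker of 10 listed in the table was *Cd68*, at 2.88 to 5.66 CPM at 0 h and 22.3 to 32.8 CPM at 24 h over both hairpins, and *Ptprc*, the pan-leukocyte marker, was not listed.

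*Spp1*, which encodes osteopontin, had the largest interaction among enhanced genes. It was at 1.22, 0.391 and 0.558 CPM in *shScr* and 0.93, 0.0948 and 0.204 CPM in *shId1* cells at 0 h, where the groups overlapped, and at 1.39, 1.15 and 3.12 against 18.4, 15.8 and 18.2 CPM at 24 h (interaction 3.48 ± 0.52, adjusted p = 0.0042). *Kcnf1*, a potassium channel subunit, was gained, at 28.2, 28.1 and 27.4 CPM in *shId1* and 4.22, 6.03 and 8.81 CPM in *shScr* cells at 24 h (interaction 2.71 ± 0.50, adjusted p = 0.0096). *Rab17*, a GTPase of polarized epithelia, went from 0.179, 0.0782 and 0.0588 to 1.75, 1.03 and 0.979 CPM in *shScr* and from 1.62, 0.569 and 1.02 to 18.7, 16.1 and 11.9 CPM in *shId1* cells, an interaction of 1.88 ± 0.38 (adjusted p = 0.013). It was 1.11 (adjusted p = 0.24) with a pseudocount of 0.1 and 0.277 (adjusted p = 0.91) with edgeR, since the level before calcium was under 1 CPM in *shScr* cells. *Slc7a11*, the cystine transporter and an ATF4 target, was the 1 called member of 25 ATF4 and amino acid genes, with 3.56% called over all genes tested. It was at 22.1, 18.5 and 22.7 CPM in *shScr* and 53.1, 43.8 and 45.9 CPM in *shId1* cells at 24 h (interaction 1.39 ± 0.19, adjusted p = 0.0032). *Prl2c5*, a prolactin family gene, was at 0.512, 0.47 and 0.792 CPM in *shScr* and 20.7, 24.1 and 15.8 CPM in *shId1* cells at 24 h, with overlap at 0 h (interaction 3.75 ± 0.72, adjusted p = 0.011). *Prl2c3* had 3.27, a call lost in 8 of the 12 fits and with edgeR (3.15, adjusted p = 0.086), and reads of these near-identical genes could be split between them. Of 21 immediate early genes *Atf3* and *Maff* were called, at 1.23 and 1.80, and lost their calls in 10 and 8 of the 12 fits and with edgeR. *Havcr2*, an immune checkpoint receptor, was at 12.8, 22.4 and 27.4 CPM in *shScr* and 68.5, 79.2 and 69.4 CPM in *shId1* cells at 24 h (interaction 2.13, lost in 2 of the 12 fits).

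Reversed genes included *Akap12*, a scaffold of protein kinase A, with the largest interaction among them after *Prl2c5*. At 0 h it was at 463, 315 and 197 CPM in *shScr* and 173, 53.7 and 98.4 CPM in *shId1* cells, and at 24 h at 37.8, 50.5 and 80.8 against 158, 257 and 254 CPM. Its response was -2.50 in *shScr* cells and 1.16 in *shId1* cells (adjusted p = 0.032), where the times overlapped, and the interaction was 3.66 ± 0.59 (adjusted p = 0.0062). *Rai14*, an actin-associated protein, was at 17.9, 20.9 and 29.2 CPM in *shScr* and 88.3, 94.2 and 88.0 CPM in *shId1* cells at 24 h, with overlap at 0 h (interaction 2.43 ± 0.33, adjusted p = 0.0032). *Postn*, the matrix protein periostin, moved the other way. It rose from 13.7, 8.21 and 13.1 to 32.9, 21.9 and 20.4 CPM in *shScr* cells and fell from 10.5, 36.6 and 20.7 to 6.65, 5.37 and 6.02 CPM in *shId1* cells (interaction -2.73 ± 0.50, adjusted p = 0.0095). Fibroblasts also make periostin, and the summed fibroblast markers, 257 to 307 CPM in *shScr* and 197 to 288 CPM in *shId1* cells at 24 h, overlapped, though the *shId1* range reached lower. Fewer cells of a type and less RNA per cell cannot be told apart in these bulk libraries. *Atp2b4*, a calcium pump of the plasma membrane, was at 10, 4.06 and 3.82 CPM in *shScr* and 1.71, 0.914 and 1.31 CPM in *shId1* cells at 24 h (interaction -2.62 ± 0.43, adjusted p = 0.0065). *Pde8a*, a cAMP phosphodiesterase, was at 22.2, 19.9 and 18.5 against 8.50, 4.57 and 5.91 CPM (interaction -2.15 ± 0.28, adjusted p = 0.0026). *Sesn1*, a p53-responsive stress gene, had -1.91, and was not called without *shScr* 0 h replicate 2 (-1.91), *shId1* 0 h replicate 2 (-1.64), *shScr* 24 h replicate 2 (-1.79) or *shId1* 24 h replicate 3 (-1.91).

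In 21 genes a fall passed in *shId1* cells alone. *Per2*, a repressor of the circadian clock, was at 18.7, 22.8 and 23.2 CPM in *shScr* and 25.0, 25.2 and 23.9 CPM in *shId1* cells at 0 h, and at 31.5, 24.7 and 22.7 against 8.84, 10.6 and 10.5 CPM at 24 h. The interaction was -1.55 ± 0.19 (adjusted p = 0.0024). *Tef*, a circadian output factor, was reversed, at 54.3, 55.5 and 45.5 against 15.2, 24.4 and 31.9 CPM at 24 h (interaction -1.41 ± 0.29, adjusted p = 0.015). These were the 2 called of 14 circadian genes tested, and the list median was -0.137. *Fras1*, a protein of the basement membrane, fell from 53.8, 55.3 and 47.8 to 26.6, 13.7 and 22.6 CPM in *shId1* cells (interaction -1.79 ± 0.33, adjusted p = 0.0095). In *shScr* cells its mean was 27.8 CPM at 0 h and 38.1 CPM at 24 h. *shId1* cells were thus higher before calcium (0.92, adjusted p = 0.035, limma) and lower after it (-0.87, adjusted p = 0.028). *Plat*, tissue plasminogen activator, was at 42.6, 36.4 and 31.4 against 13.8, 9.94 and 12.3 CPM at 24 h (interaction -1.37, lost in 4 of the 12 fits).

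Retinoid and prostaglandin genes moved in both directions, with 3 of 17 tested called higher and 2 lower, and a median of -0.21. *Cyp26b1*, which degrades retinoic acid, was at 30.7, 22.7 and 17.9 CPM in *shScr* and 12.1, 5.85 and 6.10 CPM in *shId1* cells at 0 h, and at 12, 9.75 and 10.7 against 14.1, 14.4 and 12.1 CPM at 24 h (interaction 1.87 ± 0.35, adjusted p = 0.0099). Its *shId1* minus *shScr* difference was -1.56 at 0 h (adjusted p = 0.0028, limma) and did not pass at 24 h (0.31, adjusted p = 0.45). *Dhrs3*, which returns retinaldehyde to retinol, had -1.43 ± 0.23 (adjusted p = 0.0063). *Ptgs2*, the inducible cyclooxygenase, was at 51.3, 55.6 and 116 CPM in *shScr* and 133, 161 and 157 CPM in *shId1* cells at 24 h (interaction 1.89, lost in 7 of the 12 fits), and *Ptgds*, a prostaglandin D synthase, at 3.22, 2.22 and 2.14 against 0.78, 0.477 and 0.435 CPM (interaction -1.51, and -1.41 with an adjusted p of 0.052 without *shScr* 0 h replicate 2). With edgeR *Ptgds* had -1.97 (adjusted p = 0.19). Among 32 sterol and fatty acid synthesis, 28 glycolysis and hypoxia, and 6 interferon genes tested, 0 were called by limma or edgeR. An unadjusted limma p under 0.05 was reached by 8, 4 and 1 of them, against 2439 of all 10790 genes tested. Medians of the lists were 0.11, 0.0716 and -0.273.

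**Figure D4:**
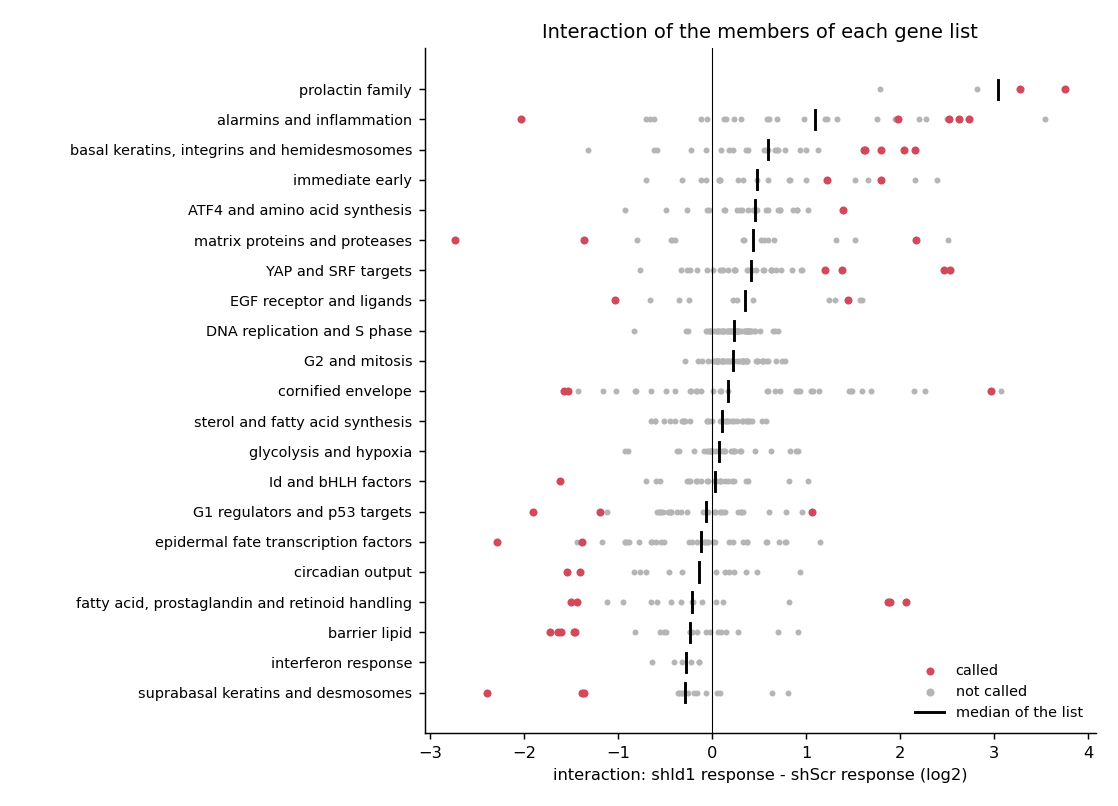
Interaction (log2) of every tested member of 21 gene lists, 1 row a list ordered by the list's median (black bar), with called genes in red and others in grey. Called members of the basal adhesion list lie to the right, between 1.61 and 2.15, and those of the barrier lipid and suprabasal lists lie to the left of 0.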

How the data were processed

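RNA of the 12 libraries was made into stranded poly(A) libraries and sequenced. Per the labels and the study's methods, the authors used bcl2fastq 2.19.1.403, CASAVA, GRCm38 and edgeR. The aligner and annotation were not given in the sources used here. The deposited values are a normalized signal per gene, named FPKM in the file but not divided by gene length: they were whole multiples of 1 read per library (tolerance 0.05, 100% of values), and are taken as read counts scaled to library size (CPM). In 4 of the 12 libraries low values were too few for a separate check of that step, which also bears on the recovered reads. The control columns carry a reporter name and were matched to *shScr* because no other group was left for them. The table also held 25 empty columns.

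Genes at 1 or more in at least 3 of 12 libraries were tested on log2(value + 0.5) with limma 3.58.1 (trend, robust, R 4.3.3) and Benjamini-Hochberg adjustment over all of them. Log2 fold changes understate changes of low genes. Classes use an adjusted p under 0.05 for each response. On simulated data with 10790 genes, 49 of 50 interactions of log2 1.5 were recovered, with 8 false calls. The interactions were placed in genes with a mean of at least 2 CPM. The simulated libraries varied independently of each other, unlike the real ones, so these counts do not measure recovery or false calls in the real libraries. Same-numbered *shScr* and *shId1* libraries deviated together at 0 h (residual correlations 0.71, 0.18 and 0.36) and at 24 h (0.71, 0.33 and 0.30), so a block within each time was fitted, an alternative chosen after seeing the data. Other alternatives were pseudocounts, filters, scalings, array weights, all 24 libraries, a replicate block over both times, leaving out libraries, and edgeR 4.0.16 on the recovered reads.

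Named genes are *Id1*, *Id2*, *Id3*, *Tcf3*, *Tcf4*, *Tcf12*, *Cebpa*, *Krt5*, *Krt14*, *Krt10*, *Ivl* and *Ccnd1*, the 10 largest rises and falls, up to 6 genes per class and direction (mean of at least 2 in the highest group, no predicted names), and up to 4 called members per list with the lowest adjusted p. Other called list members are named to complete a count. Members and lists were chosen with earlier results of these data known. Positions come from GENCODE M21 (GRCm38) and promoters from RefSeq (GRCm38.p6). 1 called member of a list is not reported here.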

Additional observations from a re-analysis of the deposited data

Results flagged for a closer look

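The calcium response differed between *shId1* and *shScr* cells, by the interaction test, in 193 genes with a higher and 191 with a lower interaction. In 65 genes both responses passed in opposite directions. Among the named ones the interaction (log2) was positive for *Prl2c5* (3.75), *Akap12* (3.66), *Etv5* (2.88), *Rai14* (2.43), *Cpn1* (2.38), *Mmp24* (2.17), *Ptgs2* (1.89), *Cyp26b1* (1.87) and *Flna* (1.2). It was negative for *Postn* (-2.73), *Atp2b4* (-2.62), *AU021092* (-2.50), *Steap3* (-2.15), *Pde8a* (-2.15), *Sesn1* (-1.91) and *Tef* (-1.41). *Steap3*, a metalloreductase of iron handling, was at 57.9, 44.8 and 44.8 CPM in *shScr* and 25.5, 21.6 and 26.1 CPM in *shId1* cells at 24 h. Its *shId1* minus *shScr* difference did not pass at 24 h (-0.99, adjusted p = 0.054, limma). At 0 h the difference passed (1.16, adjusted p = 0.044), though levels overlapped. *Cpn1*, a carboxypeptidase subunit, was at 0.693, 2.05 and 1.82 CPM in *shScr* and 4.75, 4.85 and 3.99 CPM in *shId1* cells at 24 h. *Mmp24*, a membrane-bound metalloprotease, overlapped at 24 h, at 2.23, 2.57 and 3.08 against 2.75, 5.01 and 3.27 CPM, and was lower in every *shId1* library at 0 h.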

How the results depend on the processing

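Leaving out 1 library at a time gave 180 to 528 called interactions (86 to 292 higher, 94 to 236 lower), 61 to 122 blunted, 58 to 162 lost, 6 to 47 enhanced, 22 to 125 gained and 29 to 90 reversed genes, and 1941 to 2246 called responses in *shScr* and 1556 to 1909 in *shId1* cells. Differences between hairpins that also passed the fold limit numbered 140 to 243 at 0 h and 284 to 456 at 24 h. With all 12 libraries they numbered 209 and 361. Array weights gave 661 calls (356 higher, 305 lower), with 215 blunted, 78 enhanced and 178 reversed. Without a fold limit there were 810 (423 higher, 387 lower), with 221 blunted, 283 lost, 53 enhanced and 163 gained, 6554 and 6206 responses in *shScr* and *shId1* cells, and 806 and 1577 differences at 0 h and 24 h. Without the replicates numbered 1, 292 were higher, with 84 enhanced and 119 gained. All 24 libraries gave 36 enhanced and 110 gained, a pseudocount of 0.1 gave 11 enhanced, and classes by ratio gave 45 gained and 122 reversed. edgeR called 375 genes, 342 of them among the 384, with 7 enhanced. The replicate block over both times called 428 (366 shared), and the block within each time, which pairs the hairpins, called 290 higher and, among the 94 named genes, changed no call but that of *Ccn2*. Signs turned for *Ivl* (-0.0979 to 0.357 over the libraries left out, and -0.0404 without the replicates numbered 1), *Krt10* (-0.598 to 0.0191) and *Tcf4* (-0.141 to 0.171), none of them called. Of the 94 named genes, 14 lost their call with edgeR, 9 with a pseudocount of 0.1 and 7 with quantile normalization. Where levels lay under 1 CPM, the fold depended on the pseudocount. Other causes were not tested.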

Other observations

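Natural killer receptor genes of the *Klra* family were chosen here after their values were seen. All 7 members tested were called, with 3.56% called over all genes tested. Their interactions (log2) were 1.63 for *Klra1*, 1.64 for *Klra4*, 2.04 for *Klra8* and 1.91 for *Klra9*. Those of *Klra10*, *Klra11-ps* and *Klra14-ps* were 2.04, 2.39 and 2.00. Leaving out 1 library at a time, the call was lost in 9 of the 12 fits for *Klra8*, 7 for *Klra9*, 4 for *Klra11-ps*, 3 for *Klra14-ps* and 2 for *Klra10*, and in 0 for *Klra1* and *Klra4*. *Klra4* was the most abundant, at 107, 165 and 167 CPM in *shScr* and 295, 302 and 271 CPM in *shId1* cells at 24 h. The groups were apart at 0 h too for *Klra4*, so a difference in starting level enters its interaction. *Klra* genes resemble each other and their reads could be split, so they are not independent values. *Steap2*, a metalloreductase, was also picked after its values were seen and had 1.55 with 28.4, 23.0 and 28.9 against 57.1, 50.7 and 53.6 CPM at 24 h. Its groups were apart at 0 h as well.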
